A study of Mus musculus with 6 samples.

Results

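The genes described here are 9 members of the Notch pathway, among 19865 gene symbols counted in lung fibroblasts. They are the receptors Notch1, Notch2 and Notch3, the ligand Jag1, the DNA-binding partner Rbpj, and the target genes Nrarp, Hes1, Hey1 and Heyl. The set was chosen by the values of Nrarp, whose counts were near 0 in control fibroblasts, so Nrarp is described without a test. In fibroblasts expressing the active form of Srebf1c, Nrarp averaged 34.2 ± 11.01 CPM (counts scaled to a common library total), against 0.173 ± 0.150 CPM in control fibroblasts (SD, n = 3 each). The receptors Notch1 and Notch2 were higher with active Srebf1c, while the target Hes1 was lower. Notch1 and Hes1 passed the filter on low counts through 1 group alone, trSrebf1 for Notch1 and control for Hes1. The call of Rbpj as lower was lost in 8 of 14 other analysis settings, and Notch3, Jag1 and Heyl did not pass the test.

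Notch receptors are membrane proteins that are activated by Delta-like and Jagged ligands on a neighbouring cell. Ligand binding lets ADAM proteases and then gamma-secretase cut the receptor, and the freed intracellular part joins Rbpj and Mastermind-like coactivators on DNA. The genes switched on include the Hes and Hey repressors and Nrarp, a small ankyrin-repeat protein that binds this complex and limits its activity. In the lung, Notch signals are known for their part in airway epithelium, in vessels with their pericytes and in myofibroblasts.

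The trSrebf1 group consisted of 3 libraries of fibroblasts transduced by retrovirus with trSrebf1, an active form of Srebf1c, a transcription factor that drives lipid synthesis, under doxycycline induction. The control group consisted of 3 libraries of fibroblasts transduced with a control vector. Both groups were primary lung fibroblasts of C57BL/6 Col1a2-GFP transgenic mice, carried the hLNGFR surface marker and were placed in the airways of B6 mice 5 days after 2 mg/kg of bleomycin, which injures the lung. Doxycycline was given at day 7, and donor cells were sorted at day 10 as live hLNGFR+ cells with the Col1a2 reporter that lacked CD45, CD31, EpCAM, CD146 and Ter119. The GFP reporter is driven by the Col1a2 promoter, so the sort kept cells in which this promoter was or had been active. Whether replicates were separate mice or cultures is not in the labels, so the spread behind each p-value may be technical.

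PolyA RNA of 10000 cells per library was measured by 3'SAGE-seq, in which each transcript is read as 1 short tag close to its 3' end. Totals were 4151691 to 4688196 counts in trSrebf1 libraries and 3675146 to 4134354 in control libraries. Srebf1 itself had 133, 123 and 108 counts in trSrebf1 libraries and 32, 20 and 33 in control libraries, which cannot be divided between the transgene and the endogenous gene. Ctsd alone took 6.53% to 6.81% of all counts in trSrebf1 libraries and 0.860% to 0.953% in control libraries. Summed over the 10 fibroblast markers, levels were 31573 to 36333 CPM in trSrebf1 libraries and 43756 to 56293 CPM in control libraries. Markers of other cell types were counted as sums, which were 7.31 to 21.8 and 7.87 to 14.2 CPM for epithelium, 1.14 to 2.79 and 1.03 to 4.72 CPM for macrophages, and 4.06 to 9.03 and 6.45 to 11.8 CPM for mesothelium (trSrebf1 libraries, then control libraries). Csf3r, the 1 neutrophil marker matched, had 7.31 to 9.64 CPM in trSrebf1 and 7.08 to 9.18 CPM in control libraries. Erythroid markers reached at most 0.860 CPM in a trSrebf1 library and 0.472 CPM in a control library, and Ms4a1, the 1 lymphocyte marker matched, 0 and 0.258 CPM.

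Promoter windows are shown for Nrarp and for Notch1, Notch2 and Rbpj, which were called in the test described below, Rbpj not under all settings. RefSeq windows (build GRCm38.p6, 250 bases before to 50 after an annotated start) were matched for 6 of the 9 genes. None was matched for Hes1, which was also called, nor for Hey1 and Heyl. The windows of Notch1 and Rbpj lie at RefSeq starts inside the span of the GENCODE gene. Each is written 5′ to 3′ on the strand of its gene, at chr2:25180508-25180807 (plus) for Nrarp, chr2:26503773-26504072 (minus) for Notch1, chr3:98013288-98013587 (plus) for Notch2 and chr5:53590096-53590395 (plus) for Rbpj. Capitals mark matches to any of the 4 motifs named in the next paragraph.
Nrarp: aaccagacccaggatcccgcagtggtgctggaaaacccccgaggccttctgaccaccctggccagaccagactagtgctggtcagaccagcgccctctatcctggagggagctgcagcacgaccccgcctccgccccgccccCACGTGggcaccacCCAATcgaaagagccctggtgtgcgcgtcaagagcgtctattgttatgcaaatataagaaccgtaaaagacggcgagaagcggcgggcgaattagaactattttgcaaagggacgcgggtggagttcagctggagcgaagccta
Notch1: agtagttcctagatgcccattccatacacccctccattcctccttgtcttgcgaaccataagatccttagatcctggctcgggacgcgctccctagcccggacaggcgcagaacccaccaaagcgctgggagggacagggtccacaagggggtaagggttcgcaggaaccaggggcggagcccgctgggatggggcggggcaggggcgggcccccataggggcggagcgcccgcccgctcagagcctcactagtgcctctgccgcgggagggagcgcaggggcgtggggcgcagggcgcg
Notch2: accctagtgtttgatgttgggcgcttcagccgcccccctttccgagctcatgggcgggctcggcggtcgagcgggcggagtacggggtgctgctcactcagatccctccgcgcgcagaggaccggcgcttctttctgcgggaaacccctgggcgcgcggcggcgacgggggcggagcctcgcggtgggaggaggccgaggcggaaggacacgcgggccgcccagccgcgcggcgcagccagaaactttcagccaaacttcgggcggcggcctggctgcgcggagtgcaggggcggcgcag
Rbpj: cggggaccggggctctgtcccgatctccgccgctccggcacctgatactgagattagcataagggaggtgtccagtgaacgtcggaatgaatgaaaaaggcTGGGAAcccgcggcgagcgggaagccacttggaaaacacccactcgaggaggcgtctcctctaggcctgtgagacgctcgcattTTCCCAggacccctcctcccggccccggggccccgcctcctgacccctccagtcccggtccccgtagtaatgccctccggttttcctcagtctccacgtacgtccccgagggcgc

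The motifs were searched on both strands and were chosen with these sequences in view. The Rbpj core, TGGGAA, occurred in 25.56% of all 32851 promoter windows. The E-box CACGTG, which SREBP proteins and other factors can bind, occurred in 7.15%. The sterol regulatory element, searched as TCACNCCAC, occurred in 1.242%, and the CCAAT box in 37.41%. The Nrarp window held the E-box at position -108 and a CCAAT box at position -94 from the start, with no overlap between them, and neither the Rbpj core nor the sterol element. The Rbpj window held its own core at positions -149 (plus strand) and -65 (minus strand). Another RefSeq window of Rbpj, not shown, overlaps this window and held only the minus strand match. These are the same bases, at position -205 from the start of that window's transcript. The Notch1 and Notch2 windows held none of the 4 motifs, and neither did those of Notch3 and Jag1. A match is a run of letters, not a measured binding site.

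Nrarp (chromosome 2, 25180758 to 25183339, plus strand, GENCODE vM21 on GRCm38) had 168, 88 and 193 counts in trSrebf1 libraries and 1, 1 and 0 counts in control libraries. As CPM, scaled with TMM library sizes, these were 36.1, 22.3 and 44.1 in trSrebf1 and 0.262, 0.258 and 0 in control. The lowest trSrebf1 library, replicate 2, was far above every control library. The summed CPM differed by a ratio of 207, with an exact (Clopper-Pearson) 95% interval of 56.8 to 1710.4 that describes counting error only and is no test of the rise. The fitted log2 fold change of 7.44 depends on the prior count, since 2 control counts stand behind it, and was 6.87 without control replicate 3. By this value Nrarp ranked 21 of 10194 genes. It was 1 of 10 genes with at most 3 counts over the control libraries and a mean of 20 CPM or more in trSrebf1, and ranked 7 among them by mean CPM in trSrebf1. These cutoffs were set with the values of Nrarp known. Since the same values chose the set, its ranks are a description only. The last 500 bases of Nrarp are overlapped by Gm38287 on the opposite strand, and whether the counting used strand is not given in the sources used here, so tags of the pair cannot be told apart.

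Tests were made across the 10194 genes that passed a filter on low counts, with the edgeR quasi-likelihood test and Benjamini-Hochberg adjustment over all of them. Of these genes, 17.2% were called higher and 13.0% lower in trSrebf1 at an adjusted p under 0.05, and 43.4% showed no overlap in CPM between trSrebf1 and control libraries. Of the 9 Notch genes 8 passed the filter and Hey1 did not. Nrarp and Notch1 reached the filter level in all 3 trSrebf1 libraries but in 0 and 1 control libraries, and Hes1 in 0 trSrebf1 and 3 control libraries, so these genes entered the test through 1 group alone. Leaving out Nrarp, 2 of the 7 tested genes were higher, 2 were lower and 3 were not called. The median log2 fold change of the 7 was -0.49, against -0.01 over all tested genes. Genes of the set were thus called in both directions, as were all tested genes, and counts among 7 genes are a description only.

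**Figure D1:**
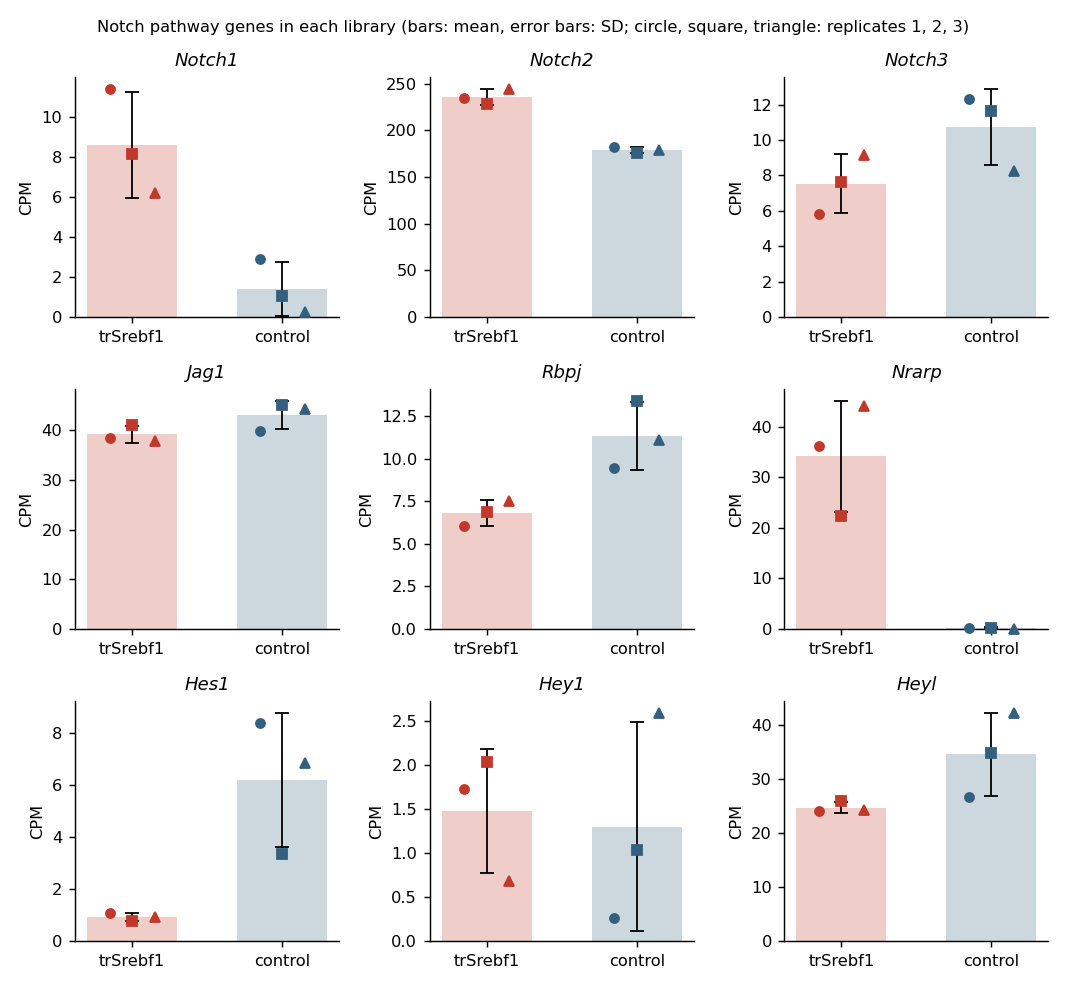
CPM of each of the 9 Notch genes in 3 trSrebf1 libraries (left of each panel) and 3 control libraries (right), with the mean as a bar and the SD as an error bar; each panel has its own CPM axis from 0. The groups do not overlap for Notch1, Notch2 and Nrarp, which are above control, nor for Rbpj, Hes1 and Heyl, which are below it, and they overlap for Notch3, Jag1 and Hey1.

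Notch1 (chromosome 2, 26457903 to 26516663, minus strand) encodes a receptor that acts in many tissues, endothelium included. It had 53, 32 and 27 counts in trSrebf1 libraries and 11, 4 and 1 in control libraries. These equal 11.4, 8.12 and 6.17 CPM in trSrebf1 and 2.88, 1.03 and 0.236 CPM in control. All 3 trSrebf1 libraries were above all control libraries, and the control libraries differed more among themselves in proportion. The mean was 8.56 ± 2.64 CPM in trSrebf1 and 1.38 ± 1.36 CPM in control (SD, n = 3 each), which gave a log2 fold change of 2.64 (SE 0.51, edgeR adjusted p = 7.66e-04). The filter was met through trSrebf1 alone, and in the fit without it the value was 2.65 (edgeR adjusted p = 1.52e-08). Both fits use the same counts, so the smaller p without the filter is no added evidence. The value rests in part on single control libraries: it was 3.74 without control replicate 1 and 2.10 without control replicate 3, with the adjusted p between 1.52e-08 and 0.00756 over all 14 other settings. In bulk RNA, a different number of cells of a type and a different amount of RNA per cell cannot be told apart. The 3' end of Notch1 is overlapped on the opposite strand by 0610009E02Rik, which had 0 counts in trSrebf1 and 1 count in control libraries, and by Gm13568, not analysed here.

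Markers of endothelium, a cell type in which Notch1 is well known, were counted beside it. The 10 of 13 listed markers that matched a symbol summed to 13.0 to 14.8 CPM in trSrebf1 libraries and 8.26 to 11.5 CPM in control libraries. Pecam1, Cdh5 and Tek had 0 counts in all 3 trSrebf1 libraries and 0 or 1 count in each control library. Of the 3 tested markers 2 were higher in trSrebf1 and 1 lower, beside 17.2% and 13.0% of all tested genes. The higher ones were Egfl7 (6.65 CPM in trSrebf1 and 0.590 CPM in control) and Esam (4.05 CPM in trSrebf1 and 1.44 CPM in control). Erg was lower (1.46 CPM in trSrebf1 and 3.87 CPM in control). Without Egfl7, a sum added after the values were seen, the sums were 7.31 to 7.96 CPM in trSrebf1 and 7.78 to 11.01 CPM in control. The part of these markers in the Notch1 values was not tested.

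Notch2 (chromosome 3, 98013527 to 98150361, plus strand), a receptor close in sequence to Notch1, had 235, 228 and 245 CPM in trSrebf1 libraries and 182, 175 and 179 CPM in control libraries. The groups did not overlap and the replicates lay close together. Its log2 fold change was 0.40 (SE 0.10, edgeR adjusted p = 0.00571), and it was called under all 14 other settings, between 0.32 and 0.43. Set against Notch2 within the same library, Notch1 had 4.86, 3.56 and 2.52 counts per 100 Notch2 counts in trSrebf1 and 1.59, 0.589 and 0.132 in control. The ratio was higher in every trSrebf1 library than in any control library, and the two-sided exact permutation p was 0.1, which no split of 3 and 3 libraries can go under, or 0.1 after adjustment over the 2 ratios computed.

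Notch3 (chromosome 17, 32120820 to 32166852, minus strand), the receptor best known in pericytes and smooth muscle, had 5.81, 7.61 and 9.14 CPM in trSrebf1 libraries and 12.3, 11.6 and 8.26 CPM in control libraries. Replicate 3 of trSrebf1 was above replicate 3 of control, so the groups overlapped. Its log2 fold change of -0.51 (SE 0.28) did not pass the test (edgeR adjusted p = 0.186). Pericyte and smooth muscle markers, 10 of 11 matched, summed to 218 to 252 CPM in trSrebf1 and 141 to 151 CPM in control. Of their 8 tested members 2 were higher (25%) and 6 lower (75%) in trSrebf1, beside 17.2% and 13.0% of all tested genes. The sum rests on Cspg4, with 121 CPM in trSrebf1 and 16.4 CPM in control. Without Cspg4, a sum added after the values were seen, it was 99.4 to 119 CPM in trSrebf1 and 118 to 137 CPM in control. Their part in the Notch3 values was not tested.

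Jag1 (chromosome 2, 137081456 to 137116644, minus strand), a Jagged ligand, had 38.5, 41.1 and 37.9 CPM in trSrebf1 libraries and 39.9, 45.2 and 44.3 CPM in control libraries. The groups overlapped, and the log2 fold change of -0.14 (SE 0.15) did not pass the test (edgeR adjusted p = 0.529).

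Rbpj (chromosome 5, 53466152 to 53657362, plus strand), the factor through which cut Notch receptors act on DNA, had 28, 27 and 33 counts in trSrebf1 libraries and 36, 52 and 47 in control libraries. As CPM these were 6.02, 6.85 and 7.54 in trSrebf1 and 9.44, 13.4 and 11.1 in control, with every trSrebf1 library below every control library. The log2 fold change was -0.73 (SE 0.26, edgeR adjusted p = 0.0432). The call was lost under 8 of 14 other settings. Without trSrebf1 replicate 1, 2 or 3 the adjusted p was 0.137, 0.0802 and 0.0646, and without control replicate 2 or 3 it was 0.171 and 0.0774. It was 0.0925 with DESeq2 and 0.0717 without the low-count filter, and lay between 0.0233 and 0.171 over all settings. The pseudogene Rbpj-ps3 matches the last 500 bases of Rbpj, so the split of tags between them is uncertain.

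Hes1 (chromosome 16, 30064384 to 30067796, plus strand), a transcriptional repressor and a classic Notch target, had 5, 3 and 4 counts in trSrebf1 libraries and 32, 13 and 29 in control libraries. The levels were 1.08, 0.761 and 0.914 CPM in trSrebf1 and 8.39, 3.35 and 6.84 CPM in control. All trSrebf1 libraries were below the lowest control library, replicate 2. The log2 fold change was -2.71 (SE 0.48, edgeR adjusted p = 3.07e-04), between -3.005 and -2.43 over the 13 other settings that gave a value. The filter was met through control alone, and in the fit without it the value was -2.70 (edgeR adjusted p = 1.20e-06). That fit uses the same counts, so its smaller p is no added evidence. Nrarp and Hes1, both Notch targets, thus lay on opposite sides of control in the same libraries. Hes1 is also known to respond to other signals, and levels of 14 immediate early genes, a list added after the values were seen, were compared beside it. Of these 13 were lower in trSrebf1, beside 13.0% of all tested genes, and their sum was 22883 to 27474 CPM in trSrebf1 libraries and 34393 to 41667 CPM in control libraries. Their part in the Hes1 values was not tested.

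Heyl (chromosome 4, 123233556 to 123249875, plus strand), a Hey-family repressor, had 24.1, 25.9 and 24.2 CPM in trSrebf1 libraries and 26.7, 34.8 and 42.2 CPM in control libraries. The groups did not overlap, but the gap between the nearest libraries was small and the control libraries were spread. The log2 fold change of -0.49 (SE 0.18) missed the threshold (edgeR adjusted p = 0.0533). The gene was called lower without control replicate 1 (0.0102), with upper-quartile factors (0.0240), with total counts (0.0332), with a filter of 5 CPM in 3 libraries (0.0441) and without Ctsd (0.0433), in a range of 0.0102 to 0.254. Hes1 counts per 100 Heyl counts were 4.46, 2.94 and 3.77 in trSrebf1 and 31.4, 9.63 and 16.2 in control (exact two-sided permutation p = 0.1, the smallest possible, and 0.1 adjusted over 2 ratios). This unplanned test could not reach 0.05 either, so nothing is concluded from it.

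Hey1 (chromosome 3, 8663359 to 8667256, minus strand), a related repressor, was close to the limit of detection. It had 8, 8 and 3 counts in trSrebf1 libraries and 1, 4 and 11 in control libraries, and the groups overlapped widely. It was not tested in the fit across genes. With no filter on low counts, a setting added for Hey1 after its values were seen, the log2 fold change was 0.16 (edgeR adjusted p = 0.911), so a difference was not detectable at this depth.

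**Figure D2:**
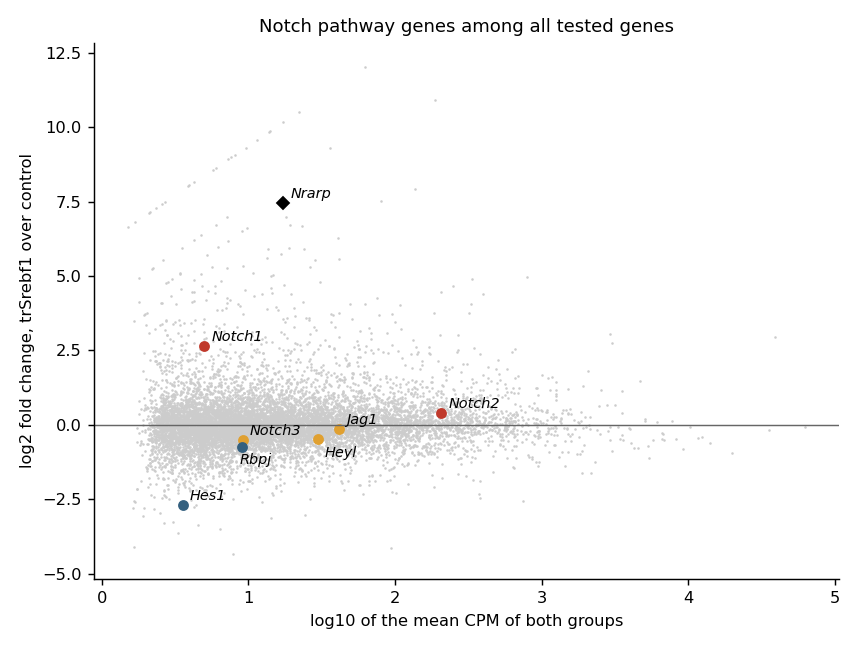
Log2 fold change of trSrebf1 over control against the log10 mean CPM of both groups for all 10194 tested genes (grey) and the 8 tested Notch genes (red higher, blue lower, orange not called, black diamond Nrarp). Nrarp at 7.44 and Hes1 at -2.71 are the 2 ends of the set, and Notch2 at 0.40 is near the centre of the cloud; the grey points on a rising line at the top have 0 control counts, so their height depends on the prior count.

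The rest of the pathway was described through 87 further genes listed by role, of which 83 matched a symbol and 67 were tested. Of the 67 genes 15 were higher (22.4%) and 6 lower (8.96%), beside 17.2% and 13.0% of all tested genes, and 46 were not called. Their median log2 fold change was 0.04, against -0.01 over all tested genes. The 16 genes matched but not tested had at most 4.09 CPM in any library. Among the genes named below, Adam17, Aph1a, Eogt, Spen, Tle2, Tcf7l1 and Axin2 have a 3' end overlapped by a gene on the opposite strand, so their counts are uncertain too.

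Among the other receptor and ligands, the 2 tested genes were both higher, but both met the filter in 3 trSrebf1 and 0 control libraries, so that count is a description. Their p-values without the filter come from the same counts and are no added evidence. Dll1 (chromosome 17, 15367354 to 15376872), a Delta-like ligand, had 24, 30 and 25 counts in trSrebf1 libraries and 2 counts in each control library. Every trSrebf1 library was far above every control library, with a log2 fold change of 3.53 (SE 0.49, edgeR adjusted p = 2.56e-05, and 1.05e-08 without the filter), though the 3' end is overlapped by A930024N18Rik on the opposite strand. Dll4 (chromosome 2, 119325784 to 119335962), a Delta-like ligand known in endothelium, had 61, 23 and 34 counts in trSrebf1 and 9, 5 and 3 in control, again with no overlap. Its log2 fold change was 2.62 (SE 0.45, edgeR adjusted p = 2.12e-04, and 8.43e-09 without the filter), beside the endothelial marker sums given with Notch1. A promoter window of Dll1 held CCAAT boxes at positions -234 and -30 (minus strand), and another held none of the 4 motifs. The promoter window of Dll4 held a CCAAT box at position -7. This box occurred in 37.41% of all promoter windows. Jag2, not tested, had 13, 10 and 1 counts in trSrebf1 libraries and 3 in each control library. Notch4, not tested, had 0 counts in each trSrebf1 library and 6, 2 and 1 in control libraries.

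None of the 6 tested genes for the sugars that tune receptor and ligand binding was called, beside 17.2% higher and 13.0% lower of all tested genes. Lfng, a Fringe sugar transferase, had a log2 fold change of -0.21 (edgeR adjusted p = 0.462), which turned to 0.10 without control replicate 1, and Pofut1, which adds O-fucose to Notch, had 0.41 (0.0887). Poglut1, which adds O-glucose, had -0.24 (0.374), and Eogt, which adds O-linked N-acetylglucosamine, had -1.12 (0.0970, and 0.0169 without trSrebf1 replicate 2). Mfng, another Fringe enzyme, named for its values, was below the filter with 19, 10 and 11 counts in trSrebf1 libraries and 0 in each control library. Set against a floor of 3 counts over the control group, it was 12.3-fold higher in trSrebf1, a value that leaves out the counting error of the trSrebf1 libraries.

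Of 8 tested genes for receptor cleavage 1 was higher (12.5%) and 1 lower (12.5%), beside 17.2% and 13.0% of all tested genes. Furin, the convertase that makes the first cut during receptor maturation, averaged 51.8 ± 3.45 CPM in trSrebf1 and 29.0 ± 4.31 CPM in control (SD, n = 3 each), which gave a log2 fold change of 0.83 (SE 0.16, edgeR adjusted p = 6.09e-04). The 3' end of Furin holds a stretch of 118 to 200 bases near-identical to transcripts of 70 other genes and is overlapped by Gm44851 on the opposite strand, so its tags are uncertain. Psen2, a catalytic subunit of gamma-secretase, had -0.55 (SE 0.20, edgeR adjusted p = 0.0489), and its call was lost under 9 of 14 other settings, in a range of 0.0222 to 0.175. The adjusted p of Psen2 was 0.0913, 0.175 and 0.05003 without trSrebf1 replicate 1, 2 or 3, and 0.156 and 0.0891 without control replicate 1 or 2. Aph1a, a gamma-secretase subunit, and Adam17, a protease that can shed receptors, had -0.21 (0.141) and 0.28 (0.546).

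Of 12 tested genes for trafficking and ubiquitin ligation 3 were higher (25%) and 1 lower (8.33%), beside 17.2% and 13.0% of all tested genes. Dtx3 of the Deltex family had a log2 fold change of 0.78 (SE 0.18, edgeR adjusted p = 0.00306), and Nedd4, a ubiquitin ligase with many substrates, had -0.53 (SE 0.12, 0.00270). Dtx2, also of the Deltex family, had 0.77 (SE 0.25, 0.0269). Its adjusted p was 0.0953 and 0.112 without trSrebf1 replicate 1 or 2, 0.0648 and 0.0758 without control replicate 1 or 3, and 0.0504 with total counts. Neurl1a, a Neuralized ligase acting on ligands, had 0.71 (SE 0.20, 0.00985), with 0.0726 without trSrebf1 replicate 3 and 0.0535 without control replicate 2. Neurl1b, not tested, was lower in trSrebf1, with 0, 5 and 1 counts in trSrebf1 libraries and 9 in each control library.

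Of 8 tested coactivators 3 were higher (37.5%) and 1 lower (12.5%), beside 17.2% and 13.0% of all tested genes. Maml2, a Mastermind-like protein that completes the complex of Notch and Rbpj, averaged 39.9 ± 5.09 CPM in trSrebf1 and 18.7 ± 2.63 CPM in control (SD, n = 3 each), with a log2 fold change of 1.09 (SE 0.18, edgeR adjusted p = 1.24e-04). Snw1, a splicing and transcription cofactor whose 3' end overlaps Slirp on the opposite strand, had 0.68 (SE 0.11, 1.22e-04). Ep300, a histone acetyltransferase, had 0.60 (SE 0.19, 0.0194), but 0.0978 and 0.0584 without trSrebf1 replicate 1 or 3, 0.0621 without control replicate 1 and 0.0504 with total counts. Kat2b, another acetyltransferase, had -1.35 (SE 0.31, 0.00302), and its near-identical copy Kat2b-ps makes the split of tags uncertain.

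Among 18 tested corepressors 2 were higher (11.1%) and 2 lower (11.1%), beside 17.2% and 13.0% of all tested genes. Rita1, which carries Rbpj out of the nucleus and overlaps Iqcd, had a log2 fold change of 1.41 (SE 0.22, edgeR adjusted p = 8.31e-05), and Spen, a corepressor that binds Rbpj, had 0.40 (SE 0.11, 0.00867). Fhl1, a LIM-domain protein, had -1.38 (SE 0.20, 3.25e-05), with 20.5 ± 6.41 CPM in trSrebf1 and 53.2 ± 6.31 CPM in control (SD, n = 3 each). Tle2, a Groucho-type corepressor, had -0.57 (SE 0.18, 0.0196), but 0.0883 and 0.0864 without trSrebf1 replicate 1 or 3 and 0.0822 without control replicate 1.

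Of 9 other tested genes reported as Notch targets 4 were higher (44.4%) and 1 lower (11.1%), beside 17.2% and 13.0% of all tested genes. Their median log2 fold change was 0.76, against -0.01 over all tested genes, and counts among 9 genes are a description only. These 9 genes also answer to other pathways. Hes6, a relative of Hes1 that is known to oppose it, had 1695, 1514 and 1714 counts in trSrebf1 libraries and 819, 700 and 898 in control libraries. All trSrebf1 libraries were above all control libraries (log2 fold change 0.91, SE 0.11, edgeR adjusted p = 4.20e-06). Cdkn1a, a cell cycle inhibitor, had 1.48 (2.19e-08), and Sox9, a transcription factor, had 1.24 (5.62e-06). Nfkb2, an NF-kB subunit, had 1.44 (1.46e-07), with 2279, 2207 and 2267 counts in trSrebf1 and 779, 597 and 935 in control. It overlaps Psd on the opposite strand, and Psd itself had 381, 229 and 417 counts in trSrebf1 and 74, 86 and 62 in control. Myc, the 1 lower gene, was named after its value was seen and had -1.11 (SE 0.29, 0.00688).

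Nrarp is also known to act on LEF and TCF factors of the Wnt pathway. None of the 4 tested genes of that group was called, beside 17.2% higher and 13.0% lower of all tested genes. Axin2, a Wnt target, had a log2 fold change of 0.42 (edgeR adjusted p = 0.0559) and Tcf7 had 0.44 (0.350). Tcf7l1 had 0.08 (0.653), a value that turned to -0.0084 with upper-quartile factors. Tcf7l2 had -0.70 (0.110, and 0.0461 without control replicate 3), and Lef1, not tested, had 8, 2 and 2 counts in trSrebf1 and 0, 2 and 0 in control.

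**Figure D3:**
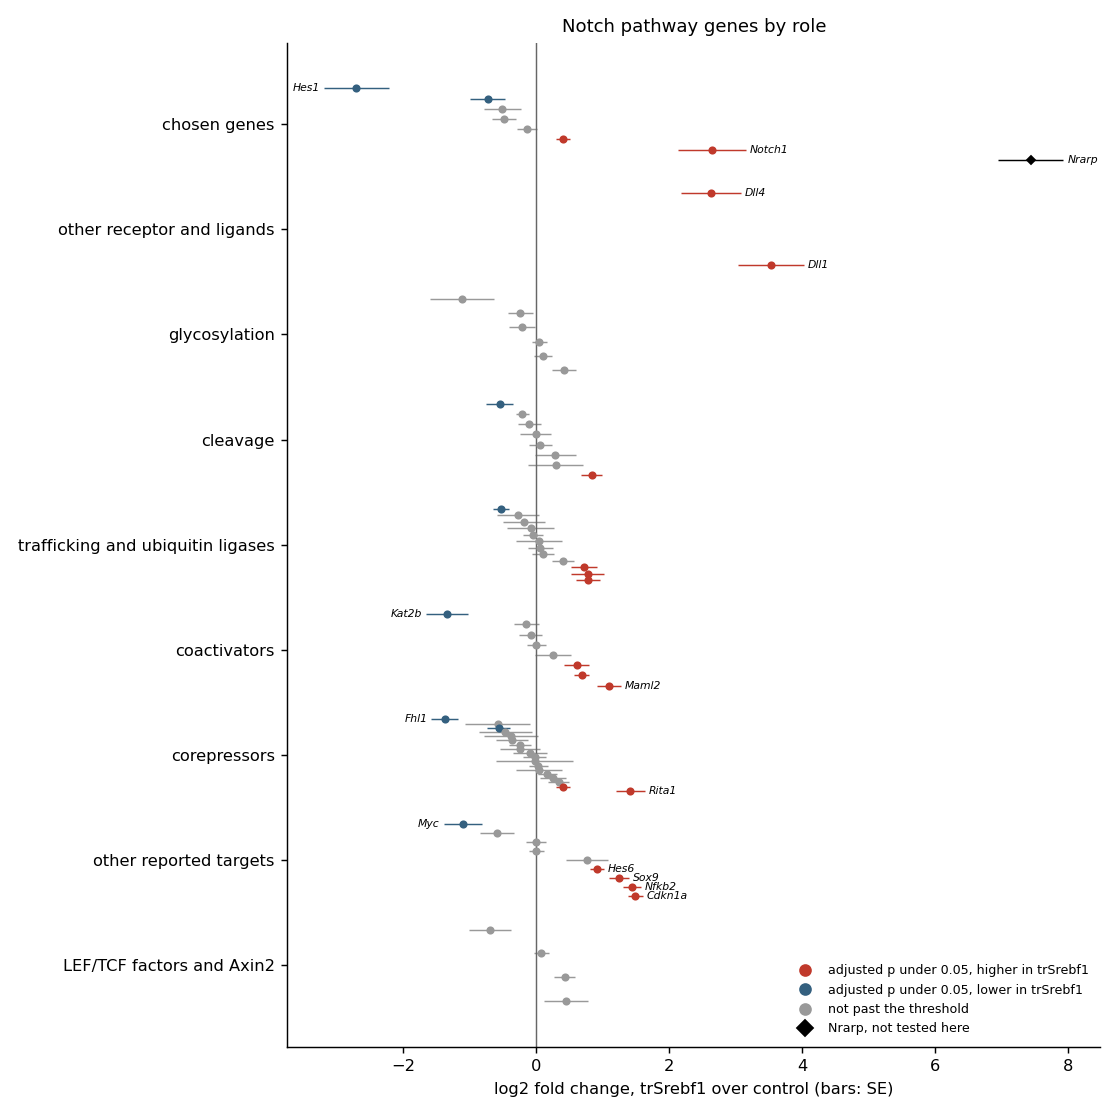
Log2 fold change of trSrebf1 over control with its SE for each tested gene, grouped by role, with genes past an adjusted p of 0.05 in red (higher) or blue (lower), others in grey, and Nrarp as a black diamond. The 2 tested Delta-like ligands, at 3.53 and 2.62, lie on the side of Notch1 at 2.64, while genes of the other roles, the chosen genes aside, lie on both sides of 0 and within 1.5 of it.

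The 5 genes whose levels were most like those of Nrarp over the 6 libraries were Phyhip, Sstr5, Birc7, Pdzk1ip1 and Slc38a3. Likeness was the root mean square difference of log2 CPM, with a prior count of 2 and each gene centred on its mean, and was 0.402 for Phyhip and 0.468 for Slc38a3. Since these genes were picked for this pattern, their values are a description. Phyhip had 111, 118 and 128 counts in trSrebf1 and 0 in each control library, 109-fold higher against a floor of 3 counts over the control group. Sstr5, Birc7 and Pdzk1ip1, also at 0 in all control libraries, were 75.7-fold, 92.3-fold and 64.7-fold higher against the same floor. Slc38a3 had 191, 164 and 139 counts in trSrebf1 and 3, 1 and 0 in control. With a prior count of 0.5, 3 of the 5 genes were among the nearest.

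**Figure D4:**
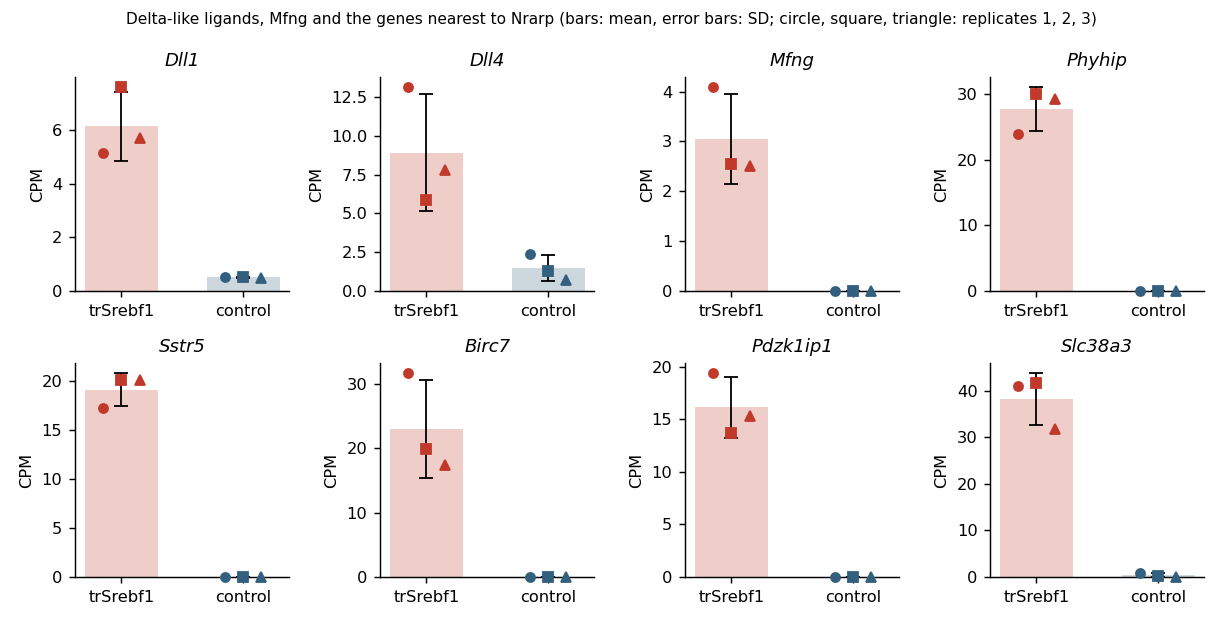
CPM of Dll1, Dll4, Mfng and the 5 genes nearest to Nrarp in 3 trSrebf1 libraries (left) and 3 control libraries (right), with the mean as a bar and the SD as an error bar; each panel has its own CPM axis from 0. Control libraries are at 0 for Mfng, Phyhip, Sstr5, Birc7 and Pdzk1ip1, and no panel shows an overlap between the groups.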

How the data were processed

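The authors deposited 1 table of raw whole-number counts by gene symbol for each library. Bowtie2 2.2.5 and mm10 are named, without a role, per the submitters' processing notes, while the counter, its annotation and its strand setting were not given in the sources used. Amplified tags carry no molecular identifiers, so intervals cover counting error only, and floors cover that of the control counts only. The test was edgeR 4.0.16 under R 4.3.3 (TMM factors, filterByExpr with minimum count 10 and minimum total 15, robust glmQLFit, two-sided glmQLFTest, prior count 0.125), with the group as the only term and Benjamini-Hochberg adjustment over all tested genes. Standard errors (SE) are the absolute log2 fold change over the root of F. The filter level was 2.41 CPM. Alternatives used DESeq2 1.42.0, limma 3.58.1 (voom), other scaling factors and filters, a replicate block, exclusion of Ctsd and exclusion of each library. The 9 genes, the role lists and the marker lists were chosen with earlier results of these data known. Named genes were the 9, Srebf1, up to 4 tested genes per role list with the smallest p, and the 5 genes nearest to Nrarp, leaving out predicted symbols. Of the role lists, Mfng, Jag2, Notch4, Neurl1b, Lef1 and Myc were named outside this rule. Marker lists covered fibroblasts, endothelium, pericytes and smooth muscle, epithelium, macrophages, lymphocytes, neutrophils, mesothelium, erythroid cells and, added later, immediate early genes. Within groups, the chi-square over its degrees of freedom was 4.52 to 8.13 for pairs of libraries, so each was counted as 1 sample. Overlaps come from GENCODE vM21 and promoters from RefSeq. The procedure was tested on simulated data.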

Additional observations from a re-analysis of the deposited data

How the results depend on the processing

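Of 38 named genes with a test, 26 kept their call and direction under every alternative that gave a value, and 12 did not, Lfng and Tcf7l1 by a change of sign alone. Of the chosen Notch genes, with Nrarp left out, 2 were called higher under all 14 alternatives. The number called lower was 2, but 1 with DESeq2, 1 with no filter on low counts and 1 with the replicate block, and 1 to 3 when single libraries were left out. It was 3 with upper-quartile factors, with total counts and without Ctsd. Rbpj and Heyl account for this. A filter of 5 CPM in 3 libraries gives no value for Hes1 or Eogt. Lfng ranged from -0.36 to 0.10 when single libraries were left out, and Tcf7l1 was -0.0084 with upper-quartile factors, and the cause was not tested. Same-numbered libraries did not deviate together (correlations of 0.005, -0.112 and -0.054, and -0.067 to 0.109 for the other pairs). With each gene centred within 3 libraries this check is weak, and it cannot exclude a pairing by number. The block gave 1646 higher and 1174 lower genes in all, against 1755 and 1328 without it, and ended the calls of Rbpj (adjusted p = 0.0644) and Psen2 (0.0630). Upper-quartile factors and total counts shifted the median of all genes to -0.10 and -0.08, with 1552 higher and 1649 lower genes for upper-quartile factors and 1565 higher and 1547 lower for total counts. Counts of 1 to 11 per library limit what can be seen of Hey1, Hes1 in trSrebf1 and Notch1 in control.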
